A study of Mus musculus with 6 samples.

Results

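This account covers 31 genes of antioxidant defence in mouse pancreatic islets, among 55401 gene identifiers counted. They were chosen by name and function: enzymes that remove superoxide and peroxides, the thioredoxin and glutathione systems, the metallothioneins, and the regulators NRF2 and KEAP1. Each of the 31 was found in the table, and each passed the filter on low counts. RNA was sequenced from islets of male mice of the C57BL/6 strain at about 20 weeks of age, in 3 control libraries and 3 libraries labelled KO. All mice carried floxed Pdgfra alleles (Pdgfra fl/fl), and Pdgfra encodes a receptor for platelet-derived growth factor. Controls lacked Pdx1-Cre and KO mice carried it, and no mice with Cre and unfloxed Pdgfra are among the samples. The Pdx1 promoter is active in pancreatic progenitors, so Cre driven by it can also act in exocrine and other endocrine cells.

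Superoxide dismutases turn superoxide into hydrogen peroxide, which catalase, glutathione peroxidases and peroxiredoxins then remove. For the glutathione peroxidases and peroxiredoxins, glutathione and thioredoxin supply the electrons and are reduced again at the cost of NADPH. The transcription factor NRF2 (Nfe2l2), held low by KEAP1, acts through antioxidant response elements on many of these genes. Metallothioneins are small cysteine-rich proteins that bind zinc and copper. Beta cells are known for low catalase and glutathione peroxidase activity compared with liver.

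Library totals ran from 15026094 to 25299689 counts, and the 31 genes together took 23740 to 52626 counts per library. The labels call the cells beta cells, and all 10 beta-cell markers examined were detected. Acinar markers, mostly digestive enzymes of the exocrine pancreas, took 21.4% to 38.3% of counts in controls and 16.7% to 29.9% in KO. A ribosomal RNA locus (CT010467.1) took 3.32% to 5.36% of counts in the controls and KO 1, 12.6% in KO 2 and 18.5% in KO 3. The targeted gene Pdgfra was counted 42, 88 and 116 times in the controls and 93, 25 and 125 times in KO. Its counts sum over all exons, so they did not check the genotype labels. Whether every library came from its own animal is not stated, and p-values therefore cover the spread of these libraries, which may be technical.

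RefSeq promoter windows (GRCm38.p6, 250 bases before to 50 after a start) were at hand for 27 of the 31 genes. None was at hand for Prdx6, Gclc, Gsr and Hmox1. The windows of Txnip, Mt1, Mt2 and Prdx1 are printed. Txnip had the highest fold change, both metallothioneins varied together, and Prdx1 holds a match to the core of the NRF2 element. Capitals mark the carbohydrate response element in Txnip, metal response element cores in Mt1 and Mt2, and the antioxidant response element core in Prdx1, where it reads on the opposite strand.
Txnip (chr3:96557707-96558006, plus strand): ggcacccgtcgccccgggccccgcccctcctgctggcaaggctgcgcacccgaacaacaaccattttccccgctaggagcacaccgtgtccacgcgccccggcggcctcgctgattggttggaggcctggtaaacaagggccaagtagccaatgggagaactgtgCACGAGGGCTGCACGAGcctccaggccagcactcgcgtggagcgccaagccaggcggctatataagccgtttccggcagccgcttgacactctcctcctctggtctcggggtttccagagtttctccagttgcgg
Mt1 (chr8:94178839-94179138, plus strand): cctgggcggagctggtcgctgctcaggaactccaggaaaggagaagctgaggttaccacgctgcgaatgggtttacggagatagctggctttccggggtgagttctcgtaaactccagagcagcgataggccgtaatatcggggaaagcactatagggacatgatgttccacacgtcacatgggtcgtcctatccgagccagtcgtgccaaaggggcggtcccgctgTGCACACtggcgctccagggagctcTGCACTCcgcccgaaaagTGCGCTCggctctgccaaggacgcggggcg
Mt2 (chr8:94172368-94172667, plus strand): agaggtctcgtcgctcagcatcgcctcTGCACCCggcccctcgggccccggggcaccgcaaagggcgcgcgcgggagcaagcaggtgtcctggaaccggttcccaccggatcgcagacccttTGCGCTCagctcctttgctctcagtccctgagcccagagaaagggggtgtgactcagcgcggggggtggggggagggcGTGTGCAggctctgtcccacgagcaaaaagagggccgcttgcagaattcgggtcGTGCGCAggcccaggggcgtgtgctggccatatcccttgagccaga
Prdx1 (chr4:116685349-116685648, plus strand): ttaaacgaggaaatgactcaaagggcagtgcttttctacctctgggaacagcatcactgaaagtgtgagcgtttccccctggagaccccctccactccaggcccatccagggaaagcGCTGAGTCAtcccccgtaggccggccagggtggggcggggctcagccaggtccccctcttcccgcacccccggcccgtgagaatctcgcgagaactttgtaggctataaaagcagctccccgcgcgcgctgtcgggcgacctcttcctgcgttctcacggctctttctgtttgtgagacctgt

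The motifs were searched on both strands. A member was counted if any of its windows held a match, whereas the share of all windows counts each window alone. Some members have several windows, so the shares differ in unit and are not directly comparable. The antioxidant core TGACNNNGC was found in 7 of the 27 genes with a window (25.9%) and in 12.4% of all 32851 windows. The 7 were Gclm, Mt2, Nfe2l2, Prdx1, Sod1, Srxn1 and Txnrd1, the last at 1 of its 3 starts. The metal core TGCACNC or TGCGCNC was found in 9 of 27 genes (33.3%) and in 25.7% of all windows. Mt1 held 3 copies, Mt2 held 4 and Gclm also held 3, and 1.97% of all windows held at least 3. The element in Txnip, the carbohydrate response element searched as a pair of CACGNG boxes 5 bases apart, was in that 1 member (3.70% of 27) and in 0.0487% of all windows. These are matches of letters in short windows and no measure of binding.

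None of the 31 genes differed between the groups at an edgeR adjusted p under 0.05 (quasi-likelihood test of counts, adjusted over all genes tested). Over the whole table the test called 10 of 14212 genes (0.0704%). Of the 31 genes, 28 had a negative log2 fold change (90.3%, against 52.2% of all genes tested) and 3 a positive one, namely Txnip, Nfe2l2 and Gss. The median log2 fold change was -0.13, beside -0.01 over all genes. At an unadjusted p under 0.05 there were 3 of 31 (9.68%, against 7.37% of all genes), with Txnip higher (4.83% of all genes were higher at this level) and Hmox1 and Txn2 lower (2.54% of all genes). Those 3 were also the members whose groups did not overlap (9.68%, against 13.9% of all genes, 7.94% with KO above and 5.94% with KO below). The 95% intervals lay within a 2-fold change in either direction for 29 of the 31, and within 1.5-fold for 21.

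**Figure D1:**
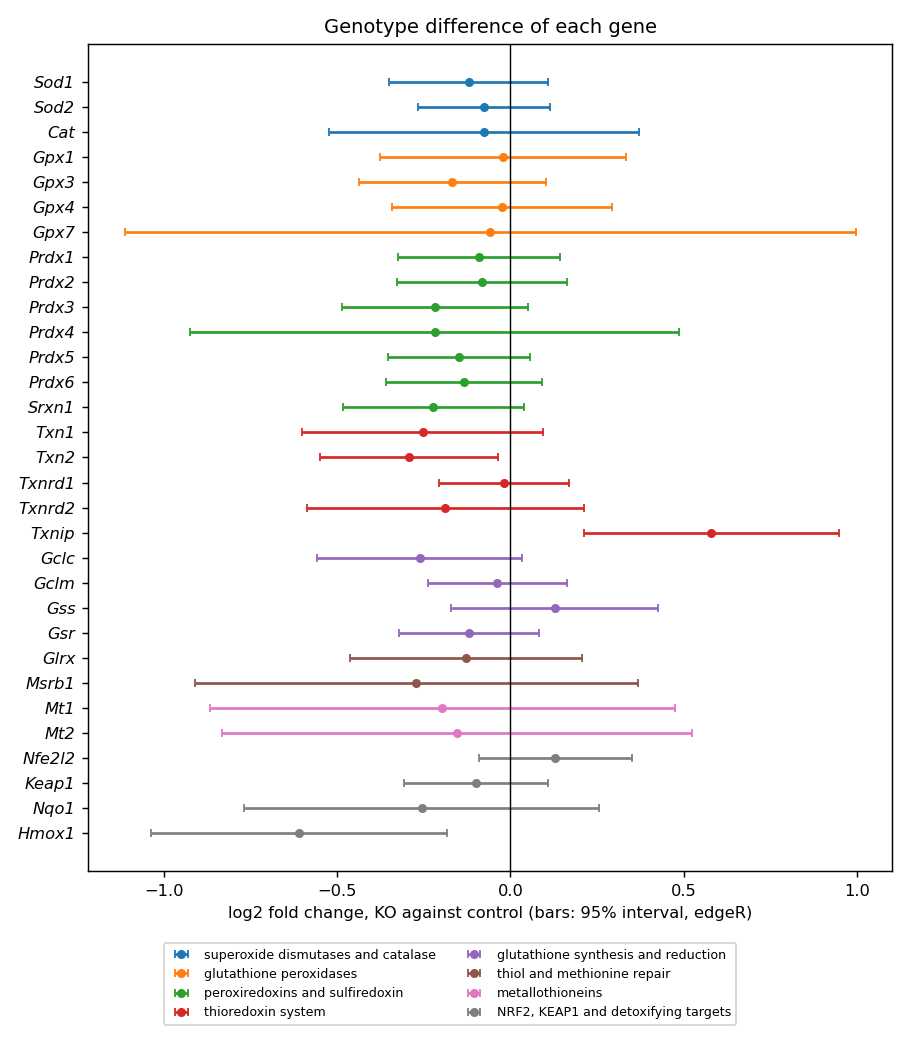
Log2 fold change of KO against control for each of the 31 genes, coloured by role, with edgeR 95% intervals (3 libraries per group). The intervals of Txnip, Hmox1 and Txn2 exclude 0, and the other 28 include it.

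The levels of the 31 genes spanned a wide range. Per kilobase of exon, Mt1 stood at 172 ± 58.8 CPM (counts scaled to library size with TMM factors) in controls and Gpx3, which encodes a secreted glutathione peroxidase, at 142 ± 18.0 (SD, n = 3 each). Mt2, Prdx4, Txnip, Txn1 and Gpx1 followed with control means from 59.9 to 38.7 CPM per kilobase. Catalase stood at 6.20 ± 1.42, Nqo1 at 2.48 ± 0.54 and Hmox1 at 2.24 ± 0.12 on the same per-length scale (SD, n = 3 each). Lowest were Gss, Txnrd2 and Gpx7, at 1.16, 0.989 and 0.513. The exon length joins all annotated exons of a gene, and the ranks depend on it. By plain CPM in controls Gss, with 5915 exon bases, stood at 6.85, above Hmox1 (3.92) and Nqo1 (3.85). In bulk RNA, fewer cells of a type and less RNA per cell cannot be told apart, and these levels average over endocrine and exocrine cells.

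**Figure D2:**
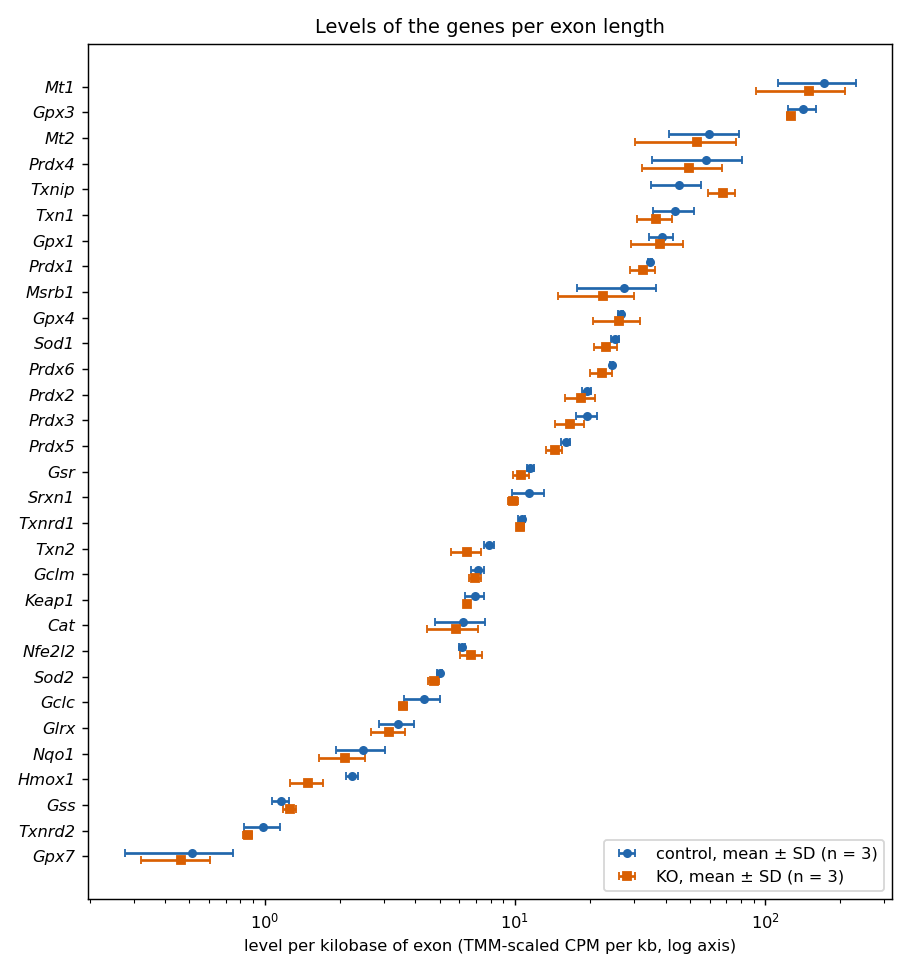
Mean level per kilobase of exon (log axis, TMM-scaled CPM per kb) in control and KO, with SD over 3 libraries. Mt1 and Gpx3 are at the top and Gpx7 at the bottom, and the bars of most genes overlap between the groups.

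In the thioredoxin system, Txnip had the highest log2 fold change of the 31 genes and Txn2 one of the lowest. Txnip encodes a protein that binds and inhibits thioredoxin and is known in beta cells as a gene induced by glucose. It lies on chromosome 3 (96557957 to 96561883, GRCm38). Txnip stood at 116, 132 and 176 CPM in controls 1, 2 and 3 and at 182, 232 and 219 CPM in KO 1, 2 and 3. Every KO library was above every control, although control 3 and KO 1 lay close together. On the log2 scale KO exceeded control by 0.58 (SE 0.16, 95% interval 0.21 to 0.95), with an edgeR adjusted p = 0.515. Without the filter on low counts 300 genes were called over the whole table, against 10 with it. Txnip then passed the threshold (edgeR adjusted p = 0.00231, log2 fold change 0.57, SE 0.13). With the log2 level of the ribosomal RNA locus as a covariate in the fit, the log2 fold change of Txnip was 0.41 (SE 0.28). That level was 15.69, 14.94 and 15.20 in controls 1, 2 and 3 and 15.67, 17.13 and 17.43 in KO 1, 2 and 3. The covariate thus partly follows genotype, and their parts cannot be told apart. Of the exon bases of Txnip, 19.4% lie within Gm15441 on the other strand. For Gm15441 there were 5, 4 and 11 counts in the control libraries and 21, 21 and 20 in KO. The strand setting is not given, so reads in the shared stretch cannot be told apart.

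Txn2, the mitochondrial thioredoxin (chromosome 15, 77915047 to 77929006), stood at 34.7, 32.7 and 31.8 CPM in controls and at 28.7, 29.7 and 22.8 in KO 1, 2 and 3. All KO libraries were below all controls, KO 3 by the most. The log2 fold change was -0.29 (SE 0.11, edgeR adjusted p = 0.646), and -0.18 without KO 3. Its cytosolic counterpart Txn1 had -0.25 (SE 0.15, edgeR adjusted p = 0.745), with control levels of 38.4 to 55.0 CPM and KO levels of 31.5 to 42.9. Its value was -0.11 without control 1 and -0.12 without KO 3. Txnrd1, the cytosolic thioredoxin reductase, was among the most even of the genes. It stood at 72.9, 76.5 and 77.1 CPM in controls and at 72.5, 73.9 and 77.3 in KO, the log2 fold change being -0.02 (95% interval -0.21 to 0.17, edgeR adjusted p = 0.963). Txnrd2, the mitochondrial reductase, had 58 to 115 counts per library and a log2 fold change of -0.19 (SE 0.18), which was -0.07 without control 1.

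Among NRF2, KEAP1 and their detoxifying targets, Hmox1 had the lowest log2 fold change of all 31 genes. Hmox1 encodes haem oxygenase 1, which degrades haem and is induced by oxidative stress (chromosome 8, 75093621 to 75100589). It stood at 3.69, 3.96 and 4.12 CPM in controls 1, 2 and 3 and at 2.60, 2.99 and 2.21 in KO 1, 2 and 3. The groups did not overlap, at a low level of 46 to 125 counts per library. Its log2 fold change of -0.61 (SE 0.19, 95% interval -1.04 to -0.18) had an edgeR adjusted p = 0.544. Macrophages also express Hmox1, and the summed level of 9 macrophage markers ran from 199.8 to 217 CPM in controls and from 166 to 231 in KO. Of the 9 markers, all detected, 7 had negative and 2 positive values, with a median of -0.09 and 0 called. The lowest was Lyz2, at 15.8 to 24.4 CPM in controls and 11.1 to 16.9 in KO (log2 fold change -0.50, edgeR adjusted p = 0.648). The part of macrophages in the result was not tested.

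Nfe2l2 itself stood at 23.3, 23.9 and 22.8 CPM in controls and at 26.9, 22.6 and 26.9 in KO 1, 2 and 3. KO 2 lay below all controls and the other KO libraries above them, with a log2 value of 0.13 (SE 0.10, edgeR adjusted p = 0.788). Keap1, which directs NRF2 to degradation, was counted 447, 525 and 941 times in controls and 750, 479 and 810 times in KO, or 30.6 to 35.9 and 29.9 to 30.8 CPM (log2 fold change -0.10, SE 0.09, edgeR adjusted p = 0.826). On the CPM scale Keap1 was highest in control 1 and near even in the other 5 libraries, and 10.9% of its exon bases lie within Gm16754 on the other strand. Nqo1, a quinone reductase much used as a readout of NRF2, stood at 3.29, 3.44 and 4.81 CPM in controls and at 3.81, 2.495 and 3.43 in KO. The groups overlapped, and the log2 fold change was -0.26 (95% interval -0.77 to 0.26, edgeR adjusted p = 0.817). It was -0.04 without control 3, the library with the highest Nqo1. The 7 genes with the antioxidant core in their window had a median log2 fold change of -0.09, with 6 negative and 1 positive and 0 called. Hmox1 and Gclc had no window at hand and Nqo1 had a window without a match, so these genes are not among the 7.

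**Figure D3:**
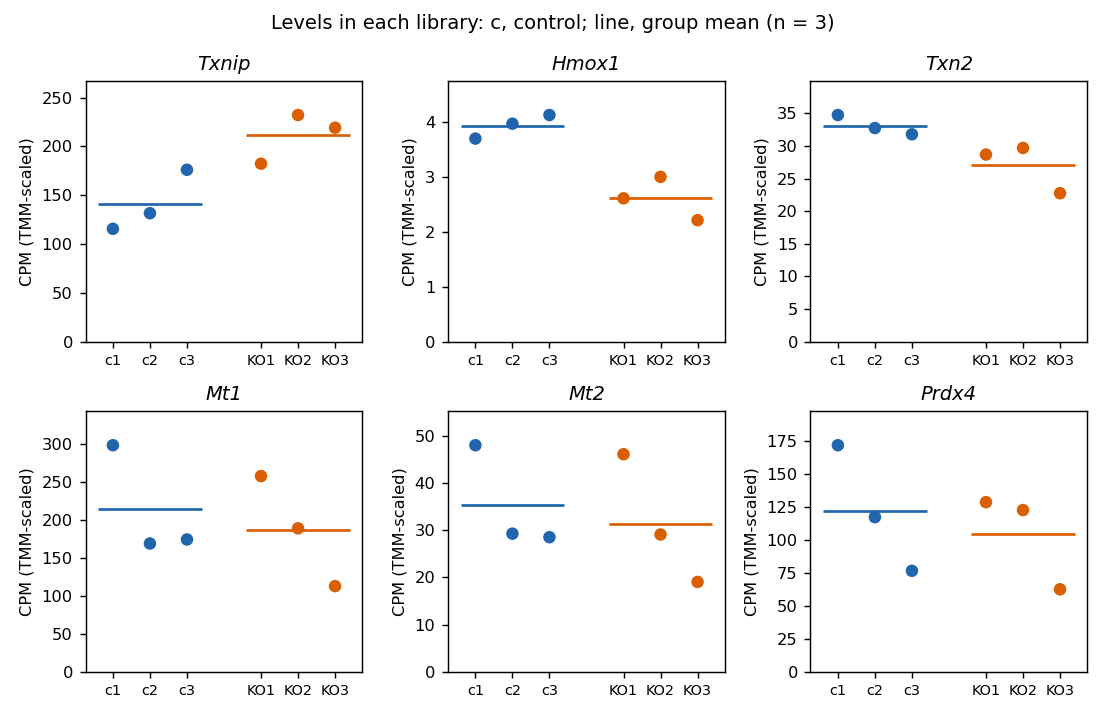
TMM-scaled CPM in each library for 6 of the genes, with lines at the group means (n = 3 each) and axes that start at 0. Txnip, Hmox1 and Txn2 separate the groups, whereas Mt1, Mt2 and Prdx4 are high in control 1 and lowest in KO 3.

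Superoxide dismutases and catalase had small negative values. Sod2, the mitochondrial manganese enzyme, stood at 51.5, 49.0 and 49.6 CPM in controls and at 44.8, 47.8 and 49.7 in KO 1, 2 and 3. The groups overlapped through KO 3, the log2 fold change being -0.08 (95% interval -0.27 to 0.11, edgeR adjusted p = 0.845). Of the 50-base words of Sod2 transcripts 21.0% also occur in transcripts of other genes, so part of its counts is uncertain. Sod1, the cytosolic copper and zinc enzyme, had -0.12 (SE 0.10). Cat stood at 20.0, 16.0 and 12.6 CPM in controls and at 19.1, 14.0 and 12.4 in KO, so that its spread within each group was larger than the difference of the means. Its difference of -0.08 on the log2 scale (SE 0.20, edgeR adjusted p = 0.943) was 0.09 without control 1 and 0.06 without KO 3. Red blood cells are rich in catalase and Prdx2, and the summed level of 5 erythroid markers was low, at 17.4 to 30.1 CPM in controls and 19.5 to 22.9 in KO. Of the 5, 4 had negative values (median -0.15) and 0 were called. Hba-a1, a globin, was the 1 marker of the 5 whose groups did not overlap (5.94% of all genes had every KO library below every control). It stood at 3.09 to 4.58 CPM in controls and 2.06 to 2.60 in KO (log2 fold change -0.64, edgeR adjusted p = 0.593). Alas2 was the 1 with a positive value (0.34). The part of red blood cells was not tested.

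The glutathione peroxidases were close between groups. Gpx3 stood at 219.9, 272 and 280.3 CPM in controls and at 237.5, 222 and 228 in KO, with all KO libraries between control 1 and the other controls. Its log2 fold change was -0.17 (SE 0.12, edgeR adjusted p = 0.780). Gpx1, the cytosolic enzyme, stood at 62.7, 54.0 and 50.8 CPM in controls and at 47.0, 70.0 and 48.0 in KO. KO 2 was the highest of all libraries and the other KO libraries the lowest, the log2 fold change being -0.02 (95% interval -0.38 to 0.33, edgeR adjusted p = 0.980). Gpx4, which reduces lipid peroxides and guards against ferroptosis, had -0.02 (SE 0.14), and 34.7% of its 50-base words also occur in transcripts of 2 other genes, so its counts are uncertain. Gpx7, an enzyme of the endoplasmic reticulum, had 9 to 20 counts per library and a 95% interval of its log2 fold change from -1.11 to 1.00, the widest of the 31. The 6 selenoproteins among the genes (Gpx1, Gpx3, Gpx4, Txnrd1, Txnrd2 and Msrb1) all had negative values, with a median of -0.10 and 0 called.

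All 7 peroxiredoxin and sulfiredoxin genes had negative values, with a median of -0.15, and 0 were called. Prdx3, the mitochondrial peroxiredoxin, had -0.22 (SE 0.12, edgeR adjusted p = 0.740). Srxn1, which restores overoxidised peroxiredoxins and is an NRF2 target, also had -0.22 (SE 0.12, edgeR adjusted p = 0.729). It stood between 26.9 and 35.7 CPM in controls and between 26.9 and 29.3 in KO, and control 1 lay within the KO range. Prdx1, Prdx2, Prdx5 and Prdx6 had values from -0.15 to -0.08. Of the exon bases of Prdx5, 19.1% lie within Trmt112 on the other strand, so part of its counts is uncertain. Prdx4, the peroxiredoxin of the endoplasmic reticulum, varied far more than the others. It stood at 172, 117 and 76.6 CPM in controls and at 129, 122.7 and 62.6 in KO, and its log2 value was -0.22 (SE 0.31, edgeR adjusted p = 0.887).

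Of the glutathione genes, Gclc and Gclm encode the subunits of the enzyme of the rate-limiting step, Gss the second enzyme, and Gsr the reductase that recycles oxidised glutathione. Gclc, the catalytic subunit, stood at 18.9, 16.5 and 13.5 CPM in controls and at 13.4, 12.9 and 14.0 in KO. Its KO libraries were alike, and control 3 was at their level (log2 fold change -0.26, SE 0.13, edgeR adjusted p = 0.725). The value was -0.15 without control 1 and -0.39 without control 3. Gclm had -0.04 (SE 0.09), Gsr -0.12 (SE 0.09) and Gss 0.13 (SE 0.13). Of the exon bases of Gss, 15.4% lie within other genes on the opposite strand. Glrx, a glutaredoxin that removes glutathione from proteins, had -0.13 (SE 0.15).

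The metallothioneins had a similar pattern over libraries. Mt1 (chromosome 8, 94179082 to 94180327) stood at 299, 169 and 174 CPM in controls 1, 2 and 3 and at 258, 189 and 113 in KO 1, 2 and 3. Mt2, its neighbour (94172664 to 94173568), stood at 48.0, 29.3 and 28.5 CPM in controls and at 46.1, 29.1 and 19.0 in KO. Both were highest in control 1, then KO 1, and lowest in KO 3, and the groups overlapped widely. Mt1 had a log2 value of -0.20 (95% interval -0.87 to 0.48, edgeR adjusted p = 0.894) and Mt2 of -0.15 (95% interval -0.83 to 0.52, edgeR adjusted p = 0.921). Without control 1 both values were 0.12, and without KO 3 they were 0.07 and 0.12. Of the exon bases of Mt2, 73.5% lie within Gm45774 on the other strand. Gm45774 had 2 to 17 counts per library, and the level of Mt2 relative to Mt1 is therefore uncertain.

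Differences between libraries within a group were as large as those between the groups for several genes. The mean deviation of the 31 genes from their own means, in log2(CPM + 0.5), was 0.14, 0.05 and -0.01 in controls 1, 2 and 3 and 0.01, 0.02 and -0.20 in KO 1, 2 and 3. KO 3 was the lowest library for 18 of the 31 genes and control 1 the highest for 12. Both held for 8 genes, namely Cat, Prdx3, Prdx4, Txn1, Txn2, Msrb1, Mt1 and Mt2. The 15 acinar markers, all detected, also summed highest in control 1 (38.3% of counts) and lowest in KO 3 (16.7%), and all 15 had negative values, with a median of -0.23 and 0 called. Fibroblast markers (8) summed to 148 to 295 CPM in controls and to 46.8 to 228 in KO, and endothelial markers (7) to 362 to 435 and to 230.5 to 454, with KO 2 lowest in both. Duct markers (10) summed to 425 to 564 CPM in controls and 375 to 458 in KO, and beta-cell markers (10) to 96290 to 125600 and 104400 to 148000. All 8 fibroblast markers (median -0.48), all 7 endothelial markers (median -0.16) and 8 of 10 duct markers (median -0.15) had negative values, and 7 of 10 beta-cell markers positive ones (median 0.12). No marker of these lists, nor of the alpha- and delta-cell lists, was called with the filter on low counts. The part of acinar, fibroblast, endothelial, duct and endocrine cells in the results was not tested. Msrb1, which encodes a methionine sulfoxide reductase, stood at 47.6, 30.4 and 24.7 CPM in controls and at 33.4, 33.9 and 17.3 in KO. Its libraries followed the order of the summed acinar CPM exactly. The mean log2 level of the acinar markers was also used as a covariate in the fit. Prdx4 then moved from -0.22 to -0.01, Msrb1 from -0.27 to -0.12, Mt1 from -0.20 to -0.06 and Mt2 from -0.15 to -0.03. Of the same 8 genes, Prdx3 moved from -0.22 to -0.17, Txn1 from -0.25 to -0.17 and Cat from -0.08 to 0.03. Outside them, Gpx3 went from -0.17 to -0.19 and Srxn1 from -0.22 to -0.25. The median of the 31 genes went from -0.13 to -0.08. In the same fit Txn2, Hmox1 and Txnip were at -0.26, -0.61 and 0.54. Whether acinar content lay behind any of these values was not tested.

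**Figure D4:**
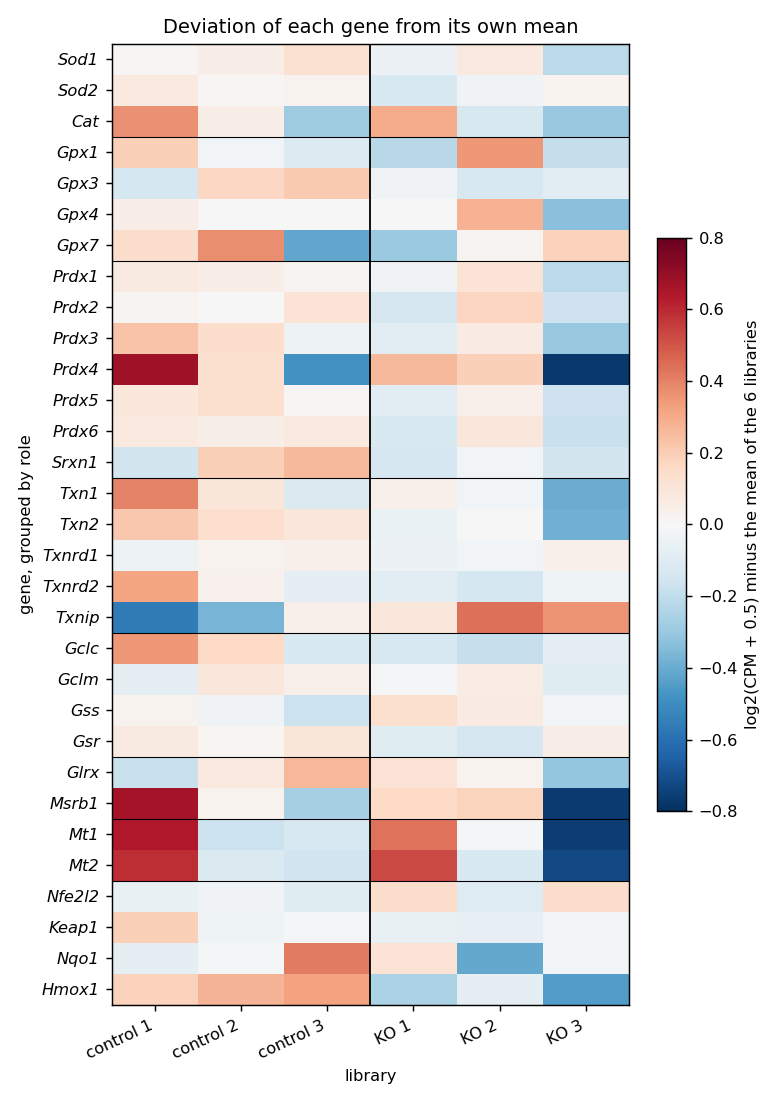
Deviation of each gene in each library from its own mean over the 6 libraries, in log2(CPM + 0.5), with genes grouped by role and a line between control and KO. Prdx4, Msrb1, Mt1 and Mt2 have the widest range, red in control 1 and blue in KO 3, while Txnip is blue in controls 1 and 2.

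The count of negative values rested in part on those libraries. It was 28 of 31 with all 6 libraries, 21 without control 1 and 21 without KO 3, and the median log2 fold change went from -0.13 to -0.08 and -0.05. With the ribosomal RNA covariate 21 were negative, and with the acinar covariate 25. Leaving out control 2, control 3, KO 1 or KO 2 gave 26 to 28 negative values.

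**Figure D5:**
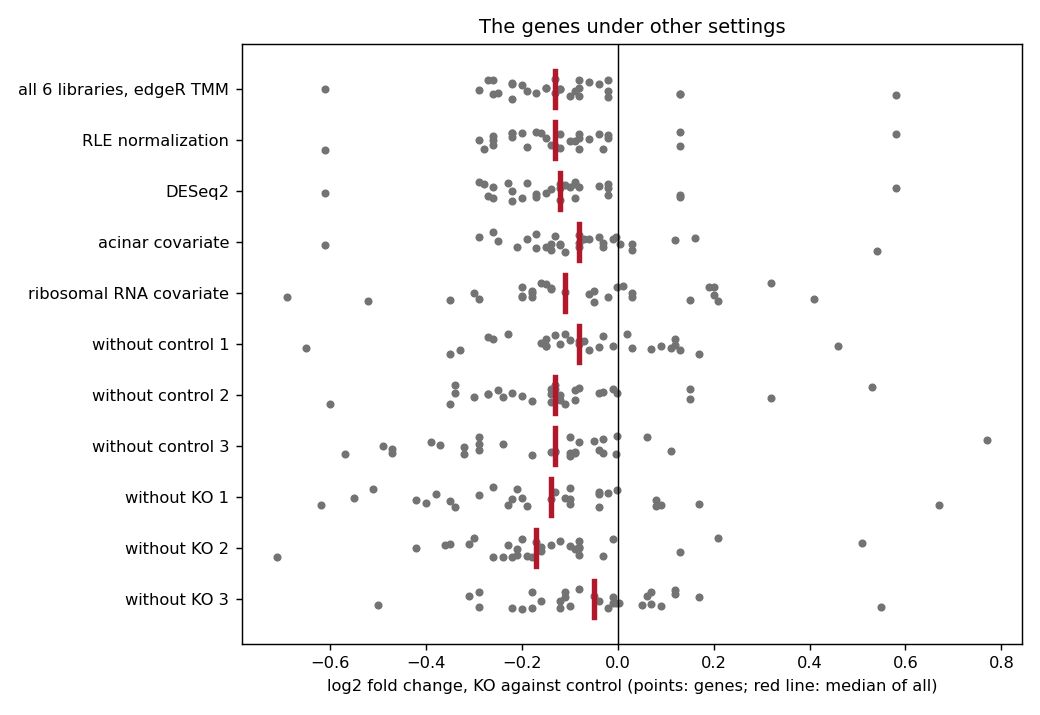
Log2 fold changes of the 31 genes (points) and their median (red line) with all 6 libraries and under 10 of the 12 alternatives tried. The median lies closest to 0 without KO 3, and Txnip is the rightmost and Hmox1 the leftmost point in most settings.

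Other genes of the same pathways were taken from lists made by function. Of 89 such genes 86 were tested, 22 with positive and 64 with negative values (74.4%, against 52.2% of all genes), and a median of -0.09. Of the 86, 0 were called and 6 had an unadjusted edgeR p under 0.05 (7.37% of all genes did). Groups did not overlap for 3 of the 86 with KO above and 9 with KO below, beside 7.94% and 5.94% of all genes. The negative values numbered 52 without KO 3 and 59 to 66 without each of the other libraries. Among NRF2 partners and regulators 3 of 10 were positive and 7 negative. Dpp3, a peptidase that binds KEAP1, had -0.23 (edgeR adjusted p = 0.744) and Park7, a redox-sensitive chaperone, had -0.14. Of the tested genes of NADPH supply 1 was positive and 6 negative, with Taldo1, of the pentose phosphate pathway, at -0.25 (edgeR adjusted p = 0.689) and G6pdx, its first enzyme, at -0.14.

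Of the tested genes of glutathione transfer and turnover 4 were positive and 14 negative. Chac1, which degrades glutathione, stood at 13.3, 7.46 and 12.7 CPM in controls and at 4.25, 4.68 and 2.89 in KO. The groups did not overlap, and the log2 fold change was -1.51 (SE 0.25, edgeR adjusted p = 0.101). Chac1 passed the threshold with DESeq2 (adjusted p = 1.29e-05), with the acinar covariate (edgeR adjusted p = 0.0358) and without the filter. Gstk1, a glutathione transferase, had -0.38 (edgeR adjusted p = 0.692). All 13 other glutaredoxin, thioredoxin-like, peroxidase and methionine sulfoxide reductase genes were negative. Gpx2, known as an epithelial glutathione peroxidase and NRF2 target, stood at 8.99, 9.15 and 9.42 CPM in controls and at 5.53, 7.67 and 6.24 in KO. Its controls were nearly equal and all above KO, and its log2 value was -0.52 (SE 0.15, edgeR adjusted p = 0.523). Glrx3, a glutaredoxin that carries iron-sulfur clusters, had -0.28 (edgeR adjusted p = 0.689).

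Iron and haem genes were 3 positive and 5 negative. Slc40a1, the iron exporter ferroportin, stood at 22.5, 24.9 and 23.0 CPM in controls and at 32.01, 38.0 and 29.8 in KO, opposite in sign to Hmox1. The groups did not overlap, and the log2 fold change was 0.50 (SE 0.11, edgeR adjusted p = 0.303, and 0.00616 without the filter). Ftl1, the light chain of ferritin, had -0.20 (edgeR adjusted p = 0.744). Of 17 further genes of selenoproteins and selenium use 4 were positive and 13 negative, with Selenop, the plasma selenium carrier, at -0.25 (edgeR adjusted p = 0.786) and Pstk, a kinase of selenocysteine synthesis, at -0.29.

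Genes of zinc and copper handling were, among these 7 pathway lists, the 1 with more positive than negative values, 7 against 6, with a median of 0.12. It includes Slc30a8, the zinc transporter of insulin granules and also a beta-cell marker, at 0.24 (edgeR adjusted p = 0.729). Mtf1, a metal-responsive transcription factor, stood at 24.3, 24.9 and 27.8 CPM in controls and at 30.3, 29.4 and 35.3 in KO. Every KO library of Mtf1 was above every control, as for 7.94% of all genes. Its log2 fold change was 0.30 (SE 0.10, edgeR adjusted p = 0.600). Atp7a, a copper exporter, stood at 30.7, 33.6 and 37.5 CPM in controls and at 40.1, 44.9 and 54.6 in KO (log2 fold change 0.45, SE 0.13, edgeR adjusted p = 0.517, and 0.0188 without the filter). Slc31a1, the copper importer CTR1, stood at 34.9, 31.9 and 29.4 CPM in controls and at 26.6, 26.6 and 23.1 in KO (log2 fold change -0.33, SE 0.10, edgeR adjusted p = 0.544). Neither pair of groups overlapped, and the exporter and the importer had opposite signs, but neither passed the test with the filter.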

How the data were processed

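The 31 genes and the gene lists were chosen with earlier results of these data known. The authors deposited 1 table of raw counts (reads per gene and library) and, per the file headers, the exon length of each gene. The submitters' processing notes name STAR 2.7.9, featureCounts 2.0.0, GRCm38.p6 and mm10. How strand and multi-mapped reads were handled, and the annotation release, is not given in the sources used here. The library kit selects mRNA, per the labels. Symbols came from a gene name table (55141 identifiers matched). The names of all KO columns end in a suffix the labels do not explain.

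Counts were tested with edgeR 4.0.16 (quasi-likelihood, R 4.3.3), TMM normalization, filterByExpr (minimum count 10, minimum total 15), genotype as the only term and Benjamini-Hochberg adjustment over all 14212 genes tested, two-sided, with a threshold of 0.05. Standard errors were derived from the log2 fold change and its F statistic. Alternatives were RLE, no filter, DESeq2 1.42.0, a replicate block, leaving out each library in turn, and an acinar or ribosomal RNA covariate. On counts simulated for this comparison (14165 genes), 90% of 100 genes with a log2 change of 1 and 99% of 96 with 2 were recovered. Of all calls 5.61% were false. The simulation gave every gene the same spread between libraries (biological coefficient of variation 0.14). It held no acinar or ribosomal RNA differences, so its recovery does not apply to genes that vary more, such as Prdx4, Mt1 and Msrb1. No library was a duplicate of another (lowest chi-square per degree of freedom 13.3). Per-library values are given for members with an unadjusted p under 0.05 or groups that do not overlap and for a fixed list. Prdx4, Msrb1 and Gclc were added after their values were seen, Prdx4 and Msrb1 because they vary widely. Gclc does not vary widely. Of each pathway list the 2 genes with the smallest p are named. Slc30a8, also a beta-cell marker, and Mtf1 are named in addition, Mtf1 after its values were seen. Shared sequence was counted as 50-base words in GENCODE vM21 transcripts.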

Additional observations from a re-analysis of the deposited data

How the results depend on the processing

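No member was called by edgeR (3 at an unadjusted p under 0.05), nor by DESeq2 (3), with RLE (3), with the replicate block (4), with either covariate (4 acinar, 0 ribosomal RNA) or without each library in turn (2 to 5). Without the filter 1 was called, Txnip. In that fit the standard errors of well-counted members were much alike, Prdx4 going from 0.31 to 0.125 and Sod1 from 0.10 to 0.12. Calls without the filter, also those of Chac1, Slc40a1 and Atp7a, therefore rest less on the spread of each gene. Over all genes the 10 calls were 300 without the filter (174 higher, 126 lower), 36 with the replicate block, 48 with the acinar covariate, 48 with DESeq2, 0 with the ribosomal RNA covariate (214 at an unadjusted p under 0.05) and 2 to 6 with 1 library left out. Same-numbered libraries correlated at 0.16, -0.16 and 0.14 in their deviations, so the numbers were not taken as pairs. The block changed no call of a member. Of the 31 genes 20 kept their sign in all 12 alternatives. With the acinar covariate Cat was 0.03, Gpx1 0.03 and Gpx4 0.0047. With the ribosomal RNA covariate Cat was 0.21, Gpx4 0.03, Gclm 0.03, Glrx 0.19, Mt1 0.15, Mt2 0.32 and Nqo1 0.01. This covariate partly follows genotype, and standard errors were larger with it, that of Sod1 going from 0.10 to 0.18. Its values and calls therefore do not separate the locus from genotype. With 1 library left out, Cat ran from -0.29 to 0.09, Gpx1 from -0.23 to 0.08, Gpx4 from -0.18 to 0.12, Gpx7 from -0.49 to 0.32, Prdx4 from -0.47 to 0.11, Gclm from -0.08 to 0.0029, Msrb1 from -0.47 to 0.03, Mt1 from -0.51 to 0.12 and Mt2 from -0.55 to 0.12. Among genes that kept their sign whichever library was left out, Txn1 ran from -0.37 to -0.11 and Gclc from -0.39 to -0.15. Txnrd2 ran from -0.29 to -0.07, Sod1 from -0.19 to -0.04 and Glrx from -0.23 to -0.0046. Of these Glrx changed sign with the ribosomal RNA covariate, as given above. The cause was not tested. Gpx7 had the fewest counts (9 to 20 per library) and a standard error of 0.47.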

Other observations

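Nnt, which encodes the mitochondrial transhydrogenase that makes NADPH, was nearly silent in both groups and was not tested. It was singled out after its values were seen. Its counts were 3, 5 and 2 in the control libraries and 11, 7 and 4 in KO, or at most 0.441 CPM. The C57BL/6J substrain is known to carry a deletion within Nnt, and the labels give the strain without a substrain.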
